A study of Rattus norvegicus with 54 samples.

Results

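The 54 nucleus accumbens libraries were ordered by how much medium spiny neuron transcript they held, and the 13 highest were set beside the 13 lowest. The order came from a score, the mean of log2(CPM + 1) over 3 genes, where CPM (the usual per-library scaling of counts) is a gene's count relative to the library's total count. The genes were Ppp1r1b, Drd1 and Adora2a. The 26 libraries at the ends of the order are called the high and the low libraries, and the 28 between them the middle libraries. The libraries were thus chosen by the measured levels of these 3 genes, and for that reason each difference in expression between the high and the low libraries is given as a description, with its standard error (SE) and no p-value. An adjusted p from the same fit served only to count and order genes. The 4 tests printed between the sets concern labels, which the score did not use, and total counts, which entered it as the divisor in CPM.

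The libraries are bulk RNA-seq of the nucleus accumbens of male and female Long Evans rats. The younger rats were taken on postnatal day 42 (P42), one day past the end of adolescent treatment, and the groups were 4 females and 9 males given ethanol before birth and water in adolescence (PAE-VEH), and 7 females and 9 males of the free-choice liquid diet control given water (FCL-VEH). At P90, in adults without any challenge, the groups were 5 females and 6 males given ethanol before birth and alcohol in adolescence (PAE-AAE), and 8 females and 6 males of FCL-VEH. Prenatal and adolescent exposure come together at P90 and cannot be told apart there. The labels do not say which libraries come from separate litters or animals, so the spread between them may be partly technical. No pair-fed rats are analysed here.

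Medium spiny neurons are the GABAergic output neurons of the striatum, of which the accumbens is the ventral part, and they far outnumber the interneurons around them. Direct pathway cells carry the D1 dopamine receptor with substance P and dynorphin, and indirect pathway cells carry the D2 dopamine receptor and an adenosine receptor with enkephalin. In both, receptors act through the G protein Golf, adenylyl cyclase 5 and protein kinase A on DARPP-32, the product of Ppp1r1b, which then inhibits protein phosphatase 1. In bulk tissue, fewer cells of a type and less RNA per cell cannot be told apart.

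Total counts ran between 58.8 M and 103.5 M counts (M, 1e6) in a library. Spiny neuron genes were abundant in all 54 libraries, the lowest value of any of 20 shared markers being 31.5 CPM for Rarb, and all libraries carry 1 batch label. In 3 libraries Xist and the Y-linked genes went against the labelled sex: a P42 male PAE-VEH library in the high set (replicate 5), a P42 female FCL-VEH library in the low set (replicate 5) and a P42 male FCL-VEH library in the middle (replicate 8). By their correlation with the others, 3 further libraries stood apart: P90 female FCL-VEH replicate 1 and P42 male PAE-VEH replicate 6 in the low set, and P90 male FCL-VEH replicate 6 in the high set.

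The score ran between 9.29 and 9.61 in the high libraries (median 9.40), between 8.80 and 9.26 in the middle libraries (median 9.03) and between 7.53 and 8.72 in the low libraries (median 8.53). The last high library, P42 male FCL-VEH replicate 9, scored 9.29 and the first one outside, P90 female FCL-VEH replicate 7, scored 9.26. At the other edge P42 female FCL-VEH replicate 4 scored 8.72 as the highest of the low libraries, and P42 male FCL-VEH replicate 1 scored 8.80 just above it. The low end was drawn out by P90 female FCL-VEH replicate 1 at 7.53 and P90 male PAE-AAE replicate 3 at 8.05, while the high libraries lay close together.

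**Figure D1:**
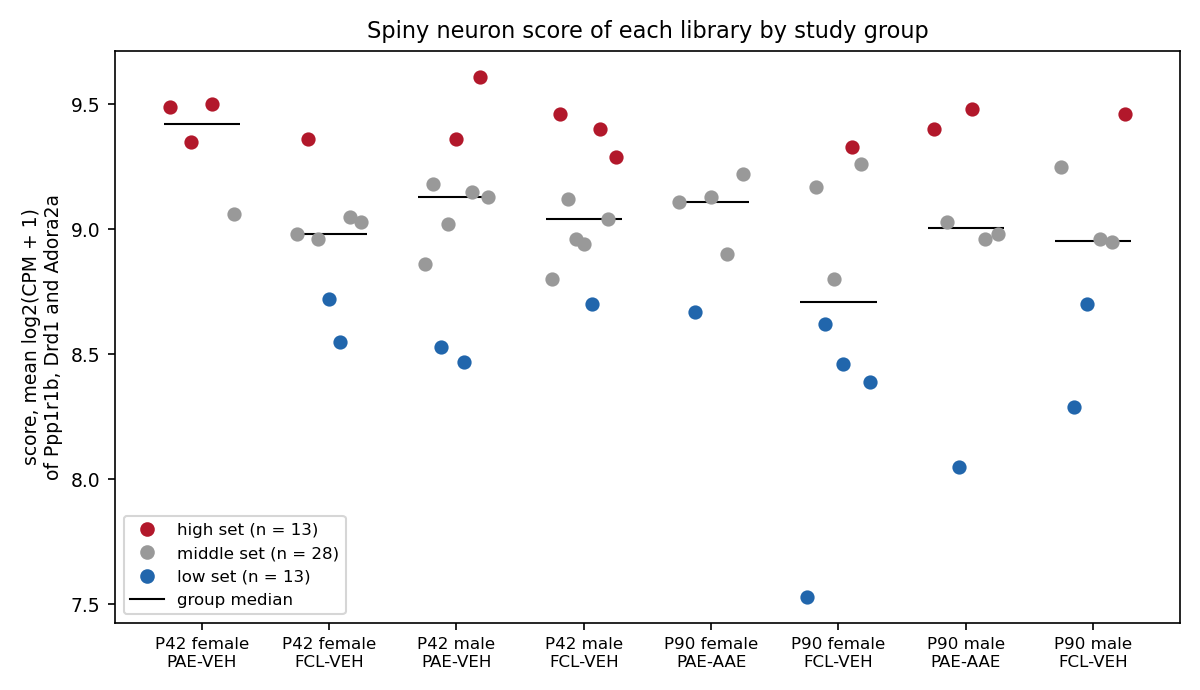
Score of each library (vertical axis, mean log2(CPM + 1) of Ppp1r1b, Drd1 and Adora2a) in the 8 study groups (horizontal axis); 1 point per library, coloured by set, with a line at the group median. High libraries occur in 7 of the 8 groups and low libraries in 7, and the lowest point is a P90 female FCL-VEH library at 7.53.

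Ppp1r1b (chr10:83843948-83853063, plus strand, GRCr8 annotation) had 1800 to 2577 CPM in the high libraries with a median of 1979, and 542.8 to 1249 CPM in the low libraries with a median of 1098. Drd1 (chr17:10545488-10550029, plus strand), the D1 receptor, had 320.1 to 468.7 CPM in the high libraries (median 409.1) and 110.0 to 262.7 CPM in the low libraries (median 229.7). Adora2a (chr20:13315270-13332802, minus strand), the adenosine receptor of indirect pathway cells, had 340.2 to 443.1 CPM in the high libraries (median 396.4) and 104.2 to 247.9 CPM in the low libraries (median 216.5). For each of these 3 genes every high library lay above every low library, which is what the choice of libraries does. With study group as covariate in an edgeR fit, the log2 difference was 1.10 ± 0.13 (SE) for Ppp1r1b, 0.91 ± 0.10 for Drd1 and 1.07 ± 0.11 for Adora2a. The same libraries were picked when Ppp1r1b or Drd1 was left out of the score. Without Adora2a, 12 of the 13 high libraries and 13 of the 13 low libraries were the same.

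The groups gave unequal numbers to the sets. Of the 4 P42 female PAE-VEH libraries 3 were high and none low, against 1 high and 2 low of the 7 P42 female FCL-VEH libraries. The P42 male PAE-VEH group gave 2 high and 2 low libraries of 9, and P42 male FCL-VEH gave 3 high and 1 low of 9. At P90 the female PAE-AAE group gave 0 high and 1 low of 5, against 1 high and 4 low of 8 in female FCL-VEH. The male PAE-AAE group gave 2 high and 1 low of 6, and male FCL-VEH 1 high and 2 low of 6. Taking the labels singly, 7 of 13 high and 4 of 13 low libraries came from ethanol-exposed groups, 9 of 13 and 5 of 13 were from P42 rats, and 5 of 13 and 7 of 13 were from females. Two-sided Fisher's exact tests of these 3 splits gave p values adjusted over the 3 of 0.642, 0.642 and 0.695, and none passed 0.05. Total counts averaged 74.7 M (SD 11.6 M) in the high and 75.8 M (SD 7.6 M) in the low libraries, 13 in each, with a two-sided permutation p of 0.769. The share of counts in long non-coding RNA genes, 0.768% to 1.28% in the high and 0.651% to 1.61% in the low libraries, overlapped, as did the number of genes with a count.

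**Figure D2:**
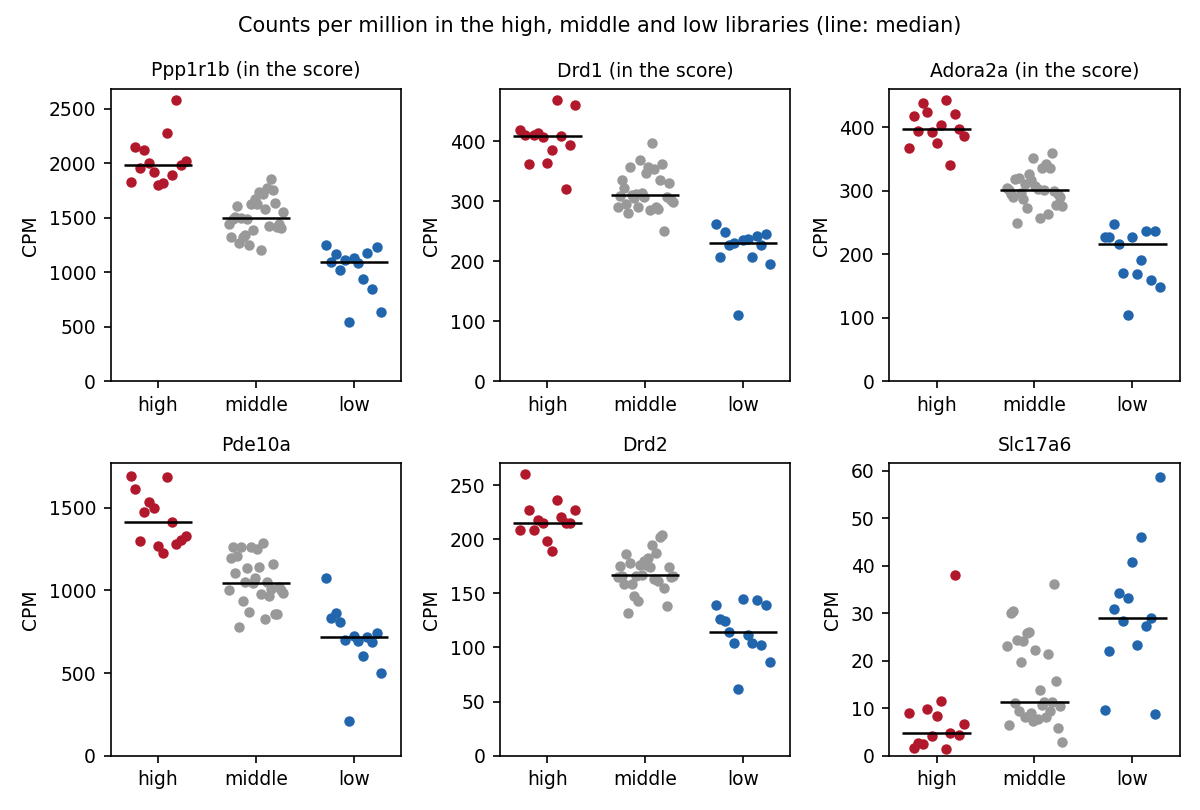
CPM (vertical axes, starting at 0) of the 3 score genes and of Pde10a, Drd2 and Slc17a6 in the high (n = 13), middle (n = 28) and low (n = 13) libraries; 1 point per library, with a line at the median. Pde10a and Drd2, which were not in the score, separate the high from the low libraries without overlap, while Slc17a6, at medians of 4.84, 11.3 and 28.9 CPM, runs the other way with overlap.

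Outside the score, 21518 genes were tested between the 2 sets. At an adjusted p below 0.05, 6.32% of them (1359) were higher in the high libraries and 3.65% (786) lower, or 9.97% in both directions. For 0.706% every high library lay above every low one. The same for every high library below every low one held for 0.209% (45 genes). The median log2 difference over all genes was -0.01. Because the libraries were split on expression, these counts are a background for the gene lists that follow and are not read as a result. The lists' own counts past that threshold are descriptions of the same kind.

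Of 20 markers shared by both kinds of spiny neuron, 20 were higher in the high libraries past that threshold, with a median log2 difference of 0.91, and for 19 of the 20 the sets did not overlap. These genes mark the same cells as the score, so the choice of libraries largely fixed their counts and directions, and nothing is read from them. Pde10a (chr1:54313343-54765668, minus strand), a phosphodiesterase rich in the striatum, had 1226 to 1696 CPM in the high libraries (median 1415) and 212.5 to 1076 CPM in the low libraries (median 721.2). The sets did not overlap, and the log2 difference was 1.09 ± 0.15. Scn4b, a sodium channel beta subunit, had the largest difference of the list at 1.34 ± 0.18, with medians of 1001 CPM in the high and 452.2 CPM in the low libraries. Meis2, a homeobox transcription factor, had the smallest at 0.52 ± 0.07 and was the one member whose sets overlapped, at 281.6 to 386.2 CPM in the high and 205.3 to 311.7 CPM in the low libraries.

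The shared list holds several steps of the dopamine and adenosine signal. The G protein subunits Gnal (0.58 ± 0.06) and Gng7 (0.91 ± 0.10) and the cyclase Adcy5 (0.88 ± 0.09) were higher. Pde1b, which like Pde10a breaks down the second messenger, was at 0.90 ± 0.10. Rgs9, which speeds the shut-off of G proteins, stood at 1.04 ± 0.13 and the small G protein Rasd2 at 1.10 ± 0.15. Among the transcription factors, Foxp1 was at 0.92 ± 0.12, Bcl11b at 0.84 ± 0.10 and the retinoic acid receptor Rarb at 0.89 ± 0.11. Summed over the list, the high libraries held 12033 to 14576 CPM (median 13003), the middle libraries 8626 to 12044 CPM (median 10450) and the low libraries 3842 to 8842 CPM (median 7577). Without the 3 libraries that stood apart the list's median was 0.87, and 20 of 20 were still past the threshold.

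Direct pathway markers differed less evenly. Of 8 tested, 5 were higher in the high libraries past the threshold, and the median log2 difference was 0.56. Tac1, the substance P precursor, had 157.0 to 247.7 CPM in the high libraries (median 219.4) and 57.0 to 162.0 CPM in the low libraries (median 117.8), a log2 difference of 0.96 ± 0.13 with a slight overlap. The M4 muscarinic receptor Chrm4 was at 0.78 ± 0.11, Slc35d3 at 0.69 ± 0.12, the dynorphin precursor Pdyn at 0.59 ± 0.10 and the transcription factor Ebf1 at 0.54 ± 0.12. The other 3 were not past the threshold: Isl1 at 0.13 ± 0.15, Eya1 at 0.02 ± 0.22 and Sfxn1 at -0.13 ± 0.06. For Isl1 the medians were 8.27 CPM in the high and 8.65 CPM in the low libraries, for a gene needed in the development of direct pathway cells, and the sets overlapped fully.

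Of 6 indirect pathway markers, 5 were higher in the high libraries past the threshold, with a median log2 difference of 0.86. Drd2 (chr8:58605403-58669339, plus strand), the D2 receptor, had 188.9 to 260.3 CPM in the high libraries (median 215.4) and 62.0 to 144.6 CPM in the low libraries (median 114.4). Penk, the enkephalin precursor, had 920.1 to 1634 CPM in the high libraries (median 1089) and 495.2 to 884.6 CPM in the low libraries (median 674.5). Neither gene's sets overlapped, and the log2 differences were 1.01 ± 0.11 for Drd2 and 0.77 ± 0.11 for Penk. The receptors Gpr6 (1.01 ± 0.11) and Gpr52 (0.83 ± 0.10) and Gprin3 (0.90 ± 0.15) were also higher, and Sp9, a transcription factor of these cells, was at 0.29 ± 0.15 and not past the threshold. In the 6 groups that held both kinds of library, Drd2 was higher in the high libraries in 6 of 6, by 0.65 to 1.35 on the log2 scale, and Pde10a in 6 of 6, by 0.72 to 1.49. Sp9 was higher in 3 of these groups and lower in 3, at differences between -0.34 and 1.0.

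Promoter sequence is shown for Drd2 and Pde10a, a pathway marker and a gene of both pathways chosen after their values were seen, because both also followed the score in the middle libraries described further on. The windows are the 250 bases before the RefSeq gene start on GRCr8, at chr8:58605153-58605402 on the plus strand for Drd2 and at chr1:54765669-54765918 on the minus strand for the first of 2 Pde10a starts. Capitals mark the GC box GGGCGG and the cAMP response element core TGACG, searched on both strands (reverse CCGCCC and CGTCA).
Drd2: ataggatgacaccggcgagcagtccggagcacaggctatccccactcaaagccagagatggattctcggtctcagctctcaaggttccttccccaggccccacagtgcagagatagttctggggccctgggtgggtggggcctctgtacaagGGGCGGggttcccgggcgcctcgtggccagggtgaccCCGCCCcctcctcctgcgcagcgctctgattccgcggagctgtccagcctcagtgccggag
Pde10a: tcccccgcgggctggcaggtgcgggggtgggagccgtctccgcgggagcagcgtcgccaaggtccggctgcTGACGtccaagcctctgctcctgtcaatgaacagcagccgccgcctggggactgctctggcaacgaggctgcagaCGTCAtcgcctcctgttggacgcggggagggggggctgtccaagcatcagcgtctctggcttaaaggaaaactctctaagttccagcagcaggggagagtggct
The Drd2 window held 2 GC boxes and 0 response element cores, and the first Pde10a window held 2 cores and 0 GC boxes. The window of the second Pde10a start, at chr1:54501207-54501456 on the minus strand and not printed here, held 0 cores and 1 GC box. Windows of the score gene Drd1 and of Scn4b, which also followed the score, were searched too. Each held 0 cores and 0 GC boxes. Over 33469 rat promoter windows of this length, 30.5% held a GC box and 18.2% a core. These are matches of letters only.

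**Figure D3:**
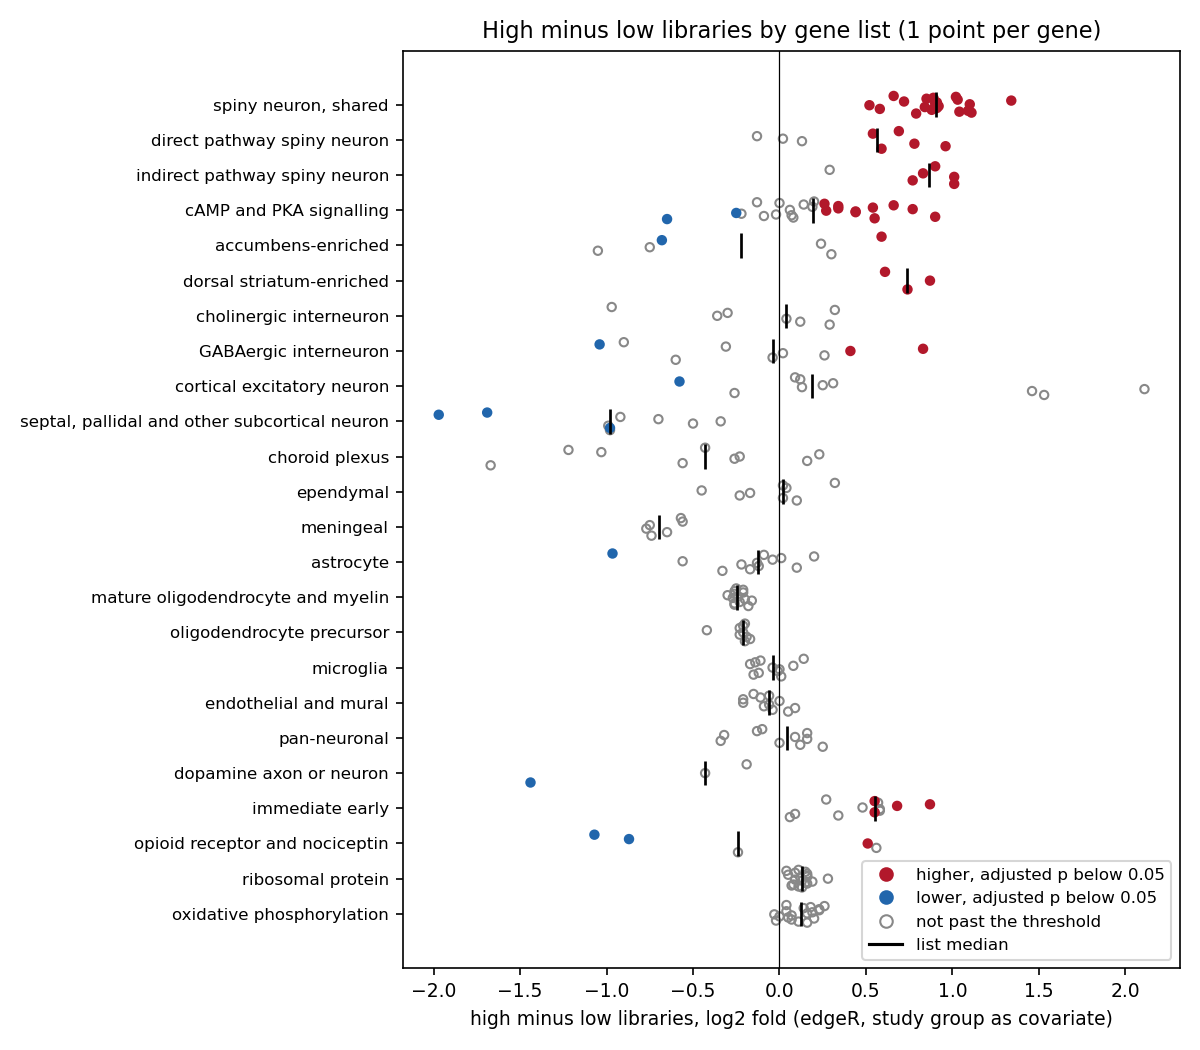
Log2 difference, high minus low libraries (horizontal axis, edgeR with study group as covariate), of each gene in 24 lists (vertical axis); 1 point per gene, filled where the adjusted p was below 0.05, with a bar at the list median. The shared spiny neuron list lies wholly above 0 with a median of 0.91, the septal and pallidal list wholly below 0 with a median of -0.98, and the myelin and microglia lists lie close to 0.

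Genes around DARPP-32 differed in size and in sign. Of 24 further genes of cAMP and protein kinase A signalling, 11 were higher and 2 lower past the threshold, with a median of 0.19. Rgs7bp, which anchors RGS proteins at the membrane, was at 0.90 ± 0.14, the phosphodiesterase Pde7b at 0.77 ± 0.08, the phosphatase 1 inhibitor Ppp1r1a at 0.66 ± 0.14 and the G protein subunit Gnb5 at 0.55 ± 0.06. The catalytic subunits of the kinase were near 0, Prkaca at -0.09 ± 0.07 and Prkacb at 0.07 ± 0.06, and its regulatory subunits split, with Prkar2b at 0.44 ± 0.06 and Prkar2a at -0.25 ± 0.06. Gnas, the stimulatory G protein that most other cells use in place of Golf, had 655.0 to 1018 CPM in the high libraries (median 842.3) and 1008 to 2360 CPM in the low libraries (median 1345). Its log2 difference was -0.65 ± 0.14, against 0.58 ± 0.06 for Gnal, the Golf subunit.

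By the smallest p among genes outside the score, the genes higher in the high libraries were Cacna2d3, a calcium channel subunit, at 0.71 ± 0.06, then Kctd8, Entpd3, Actn2, Rxrg, Rasgrp2, Ppp3ca, Cpne5, Gnal and Kcnab1, at log2 differences between 0.58 and 1.03. Ppp3ca encodes the catalytic subunit of calcineurin, the phosphatase that removes phosphate from DARPP-32, and had medians of 1342 CPM in the high and 872.1 CPM in the low libraries. Rxrg, a retinoid X receptor, had medians of 87.1 and 50.8 CPM in those sets. Of the 10 genes, 10 were higher in all 6 groups that held both kinds of library. They were picked by p from these same libraries, so the choice largely fixed this count and nothing is read from it.

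The 10 genes lower in the high libraries with the smallest p were Adcy6, Npr2, Magi1, Tbc1d1, Grik1, Adgra1, Vash2, Iqsec3, Arsg and Ppp1r26, at log2 differences between -1.28 and -0.41. Of these, 10 of 10 were lower in all 6 groups, a count likewise largely fixed by choosing them from the same libraries. Grik1, a kainate-type glutamate receptor, had 8.28 to 18.8 CPM in the high libraries (median 10.6) and 16.1 to 51.5 CPM in the low libraries (median 24.3), at -1.28 ± 0.18. Adcy6, a cyclase related to Adcy5, had medians of 35.1 and 52.0 CPM in the high and low libraries, at -0.50 ± 0.06. Chosen after their values were seen, among the 45 genes with every high library below every low one, were Gng2 (medians 130.9 and 223.9 CPM, -0.61 ± 0.09), a G protein gamma subunit, against Gng7 above, and the potassium channel Kcnj6 (31.1 and 74.3 CPM, -1.03 ± 0.19).

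Markers of neighbouring subcortical regions were lower in the high libraries. Of 9 septal, pallidal and other subcortical neuron markers, 9 had negative log2 differences and 3 were past the threshold, with a median of -0.98. Slc17a6, the vesicular glutamate transporter of subcortical excitatory neurons, had 1.34 to 38 CPM in the high libraries (median 4.84) and 8.81 to 58.7 CPM in the low libraries (median 28.9), at -1.69 ± 0.46. The 38 CPM of Slc17a6 was in P90 male FCL-VEH replicate 6, a library that stood apart. Without that library Slc17a6 was at -2.23 ± 0.39, and its sets still overlapped. Crhr2, a receptor for urocortins that is prominent in the lateral septum, was at -1.97 ± 0.46 and the transcription factor Zic2 at -0.98 ± 0.28, and these also overlapped widely between sets. Zic1, at -0.98 ± 0.35, was not past the threshold. Summed over the list, the high libraries held 65.9 to 260.0 CPM (median 151.9), the middle libraries 92.5 to 369.6 CPM (median 203.4) and the low libraries 130.1 to 513.0 CPM (median 318.6), and no marker was at 0 in any library. Without the 3 libraries that stood apart, 7 of 9 were past the threshold, and without P42 male PAE-VEH replicate 6 alone, 6 of 9. The 10 highest against the 10 lowest libraries gave 0 of 9 past it, with a median of -0.90. The part of these neighbouring cells in the spiny neuron differences was not tested.

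**Figure D4:**
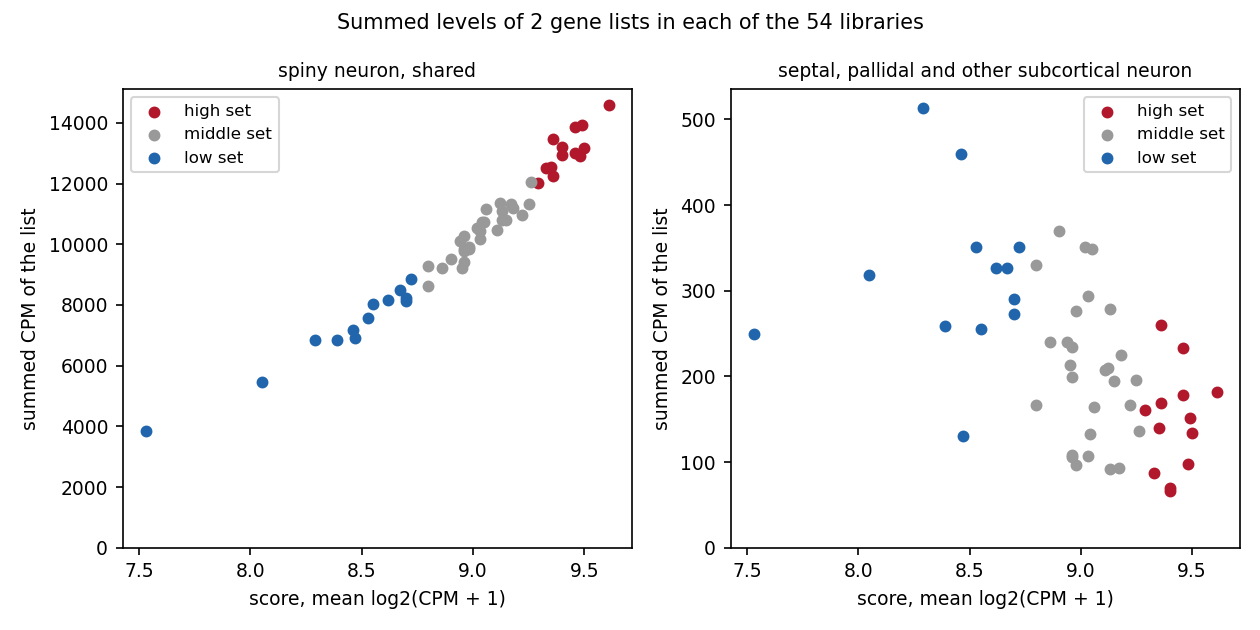
Summed CPM (vertical axes, starting at 0) of the 20 shared spiny neuron markers, left, and the 9 septal, pallidal and other subcortical neuron markers, right, against the score (horizontal axes) in each of the 54 libraries. The spiny neuron sums follow the score through all 3 sets, between 3842 and 14576 CPM, while the right panel scatters widely, with 2 of the 13 low libraries above the highest middle value of 369.6 CPM.

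Genes that mark regions of the striatum were mixed. Of 3 genes richer in dorsal striatum, 3 were higher in the high libraries past the threshold, with a median of 0.74: Coch at 0.87 ± 0.12, the CB1 cannabinoid receptor Cnr1 at 0.74 ± 0.15 and Gpr155 at 0.61 ± 0.08. Of 6 accumbens-enriched genes, Crym was higher (0.59 ± 0.10) and Nnat lower (-0.68 ± 0.12) past the threshold. The other 4 were not past it: Calcr at -1.05 ± 0.49, Dlk1 at -0.75 ± 0.28, Cartpt at 0.30 ± 0.36 and the D3 receptor Drd3 at 0.24 ± 0.33. Calcr ran between 7.96 and 39.3 CPM in the high libraries and between 0.975 and 100.4 CPM in the low libraries, the wider spread being on the low side.

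In the glial, vascular and general neuronal lists few genes passed. None of 14 myelin genes (median -0.25), 9 oligodendrocyte precursor genes (-0.21), 11 microglial genes (-0.04), 11 endothelial and mural genes (-0.06) or 10 pan-neuronal genes (0.05) was past the threshold. The myelin sum was 7277 to 26669 CPM in the high libraries (median 12820) and 7652 to 26450 CPM in the low libraries (median 13171), nearly the same range. Of 12 astrocyte genes only Agt, the angiotensinogen precursor, was lower past the threshold, at -0.97 ± 0.30. None of 7 cholinergic interneuron genes was past the threshold, and Chat, the acetylcholine-making enzyme, had medians of 20.8 CPM in the high and 19.9 CPM in the low libraries. Of 9 GABAergic interneuron genes Kit (0.41 ± 0.06) and Pthlh (0.83 ± 0.16) were higher and Calb2, calretinin, lower (-1.04 ± 0.29), while Sst was at -0.04 ± 0.16. None of 9 choroid plexus, 8 ependymal, 6 meningeal, 19 tested ribosomal protein or 18 oxidative phosphorylation genes was past the threshold. Some lists were one-sided all the same. The 14 myelin, 9 oligodendrocyte precursor and 6 meningeal genes (median -0.7) were all negative, and the 19 ribosomal protein genes (0.13) all positive. Without P90 male FCL-VEH replicate 6, 2 choroid plexus genes were lower past the threshold, with a median of -1.0 against -0.43, and the myelin median was -0.46. Without the 3 libraries that stood apart, 3 choroid plexus genes were lower past it, with a median of -0.91.

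The cortical markers overlapped between the sets and were high in single libraries. The summed cortical excitatory markers had 41.5 to 403.0 CPM in the high libraries (median 67.8) and 53.7 to 1504 CPM in the low libraries (median 70.3). The highest low value was P42 male PAE-VEH replicate 6, where Slc17a7, the cortical vesicular glutamate transporter, reached 1087 CPM against a median of 13.8 CPM over the low libraries. Of the 10 markers Cux2 was past the threshold, at -0.58 ± 0.13, and the median was 0.19 with 2 of 10 negative. Without P42 male PAE-VEH replicate 6, 3 markers were higher and 1 lower past it, with a median of 0.74, and without the 3 libraries that stood apart 2 were higher and 1 lower. The median turned to -1.49 for the 10 highest against the 10 lowest libraries and to -0.91 with no group covariate, with 10 of 10 negative in both. The transthyretin gene Ttr of choroid plexus reached 3325 CPM in 1 high library against a median of 50.6 CPM over the high set.

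Activity-linked and opioid genes were mixed. Of 12 immediate early genes, 4 were higher in the high libraries past the threshold (Arc 0.87 ± 0.23, Nr4a1 0.68 ± 0.21, Junb 0.55 ± 0.12 and Homer1 0.55 ± 0.10), with a median of 0.55, and Fos was at 0.06 ± 0.27. Arc had 25.1 to 98.1 CPM in the high and 14.2 to 82.4 CPM in the low libraries, so the sets overlapped over most of their range. Leaving out P90 male FCL-VEH replicate 6 left 3 genes past the threshold, and leaving out P42 male PAE-VEH replicate 6 gave 6. Without the 3 libraries that stood apart 7 were past it, and the 10 highest against the 10 lowest libraries gave 2. Among opioid genes Oprk1, the kappa receptor that binds dynorphin, was higher (0.51 ± 0.11), while the nociceptin receptor Oprl1 (-0.87 ± 0.14) and its ligand precursor Pnoc (-1.07 ± 0.33) were lower. The mu receptor Oprm1 was at -0.24 ± 0.17 and not past the threshold. Th, tyrosine hydroxylase, was lower at -1.44 ± 0.42 but had at most 5.82 CPM in any of the 26 libraries.

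The 28 middle libraries belong to neither set, so their values are apart from those of the high and low libraries. They were bounded by the score all the same, and the slope is taken on the score's own 3 genes. Here each gene's log2 level was fitted on the score with study group as covariate, so a slope of 1 means that a gene changed as much as the mean of the 3 score genes. Over 28829 genes outside the score, 0.132% (38 genes) had a positive slope at an adjusted p below 0.05 by edgeR's quasi-likelihood test, and none a negative one. At an unadjusted p below 0.05 704 slopes were negative and 1037 positive, and DESeq2 called 105 positive and 27 negative slopes. Each gene shares its library total with the score, and the middle scores span only 8.80 to 9.26. In simulated counts this fit recovered only 20.5% of true slopes of 1, so genes short of the threshold are not read as flat. The 38 genes were 38 of 38 also higher in the high libraries, which the same score picked.

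Of the 20 shared spiny neuron markers, 12 had a positive slope past the threshold, and 20 of 20 slopes were above 0, with a median of 0.88 against 0.01 over all genes. These genes mark the same cells as the score, so slopes above 0 were largely given in advance. Pde10a had 776.9 to 1285 CPM in the middle libraries (median 1048), and its slope was 1.22 ± 0.19 (SE, edgeR adjusted p = 0.00453). Scn4b again had the steepest slope of the list, 1.44 ± 0.24 (edgeR adjusted p = 0.00739). Ano3 (1.15 ± 0.18) and Foxp1 (0.90 ± 0.14) also passed, at the same adjusted p as Pde10a. Markers past the threshold also included Pde1b, Bcl11b, Arpp21, Adcy5, Rasgrp2, Actn2 and Rgs9, at slopes between 0.76 and 1.18, while Meis2, at 0.53, had an edgeR adjusted p of 0.307.

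No test compared the 2 output pathways within the middle libraries. Their markers belong to the same cells as the score genes Drd1 and Adora2a. Slopes above 0 were thus again largely given in advance. Of the 6 indirect pathway markers 2 passed, Drd2 with a slope of 0.95 ± 0.14 (edgeR adjusted p = 0.00453) at 131.7 to 204.1 CPM, and Gpr6 with 0.95 ± 0.18 (edgeR adjusted p = 0.0195). Not past the threshold were Gpr52 at 0.91 (edgeR adjusted p = 0.0864), Gprin3 at 0.73 (0.534), Penk at 0.57 (0.647) and Sp9 at -0.16 (0.998). The median slope of this list was 0.82. Of the 8 direct pathway markers 0 passed, with a median slope of 0.62. Among these Slc35d3 had 0.84 (edgeR adjusted p = 0.0641), Tac1 0.82 (0.477), Pdyn 0.58 (0.737) and Isl1 -0.17 ± 0.46 (0.998). Of the 24 signalling genes only Pde7b passed, at 0.72 ± 0.15 (edgeR adjusted p = 0.0399).

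Outside the lists, 23 genes had a positive slope past the threshold. The first by p were Rab40b, of the Rab GTPase family, at 0.96 ± 0.15 (edgeR adjusted p = 0.00557), the calcium-binding protein gene Rcn1 at 1.0 ± 0.16 (0.00639) and Smpd3, a neutral sphingomyelinase, at 0.89 ± 0.14 (0.00739). Rxrg, Ppp3ca and Cacna2d3, among the leading genes between the sets, also passed, at 1.31 ± 0.24, 0.82 ± 0.15 and 0.73 ± 0.14. Chosen after their values were seen, the calcium sensor gene Hpca had a slope of 1.11 ± 0.21 (edgeR adjusted p = 0.0188) and the diacylglycerol kinase Dgkb 0.85 ± 0.14 (0.00739). The steepest of the 38 was Kremen1, a co-receptor in Wnt signalling, at 1.79 ± 0.33 (edgeR adjusted p = 0.0177), with medians of 121.3 CPM in the high, 88.8 CPM in the middle and 53.1 CPM in the low libraries.

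**Figure D5:**
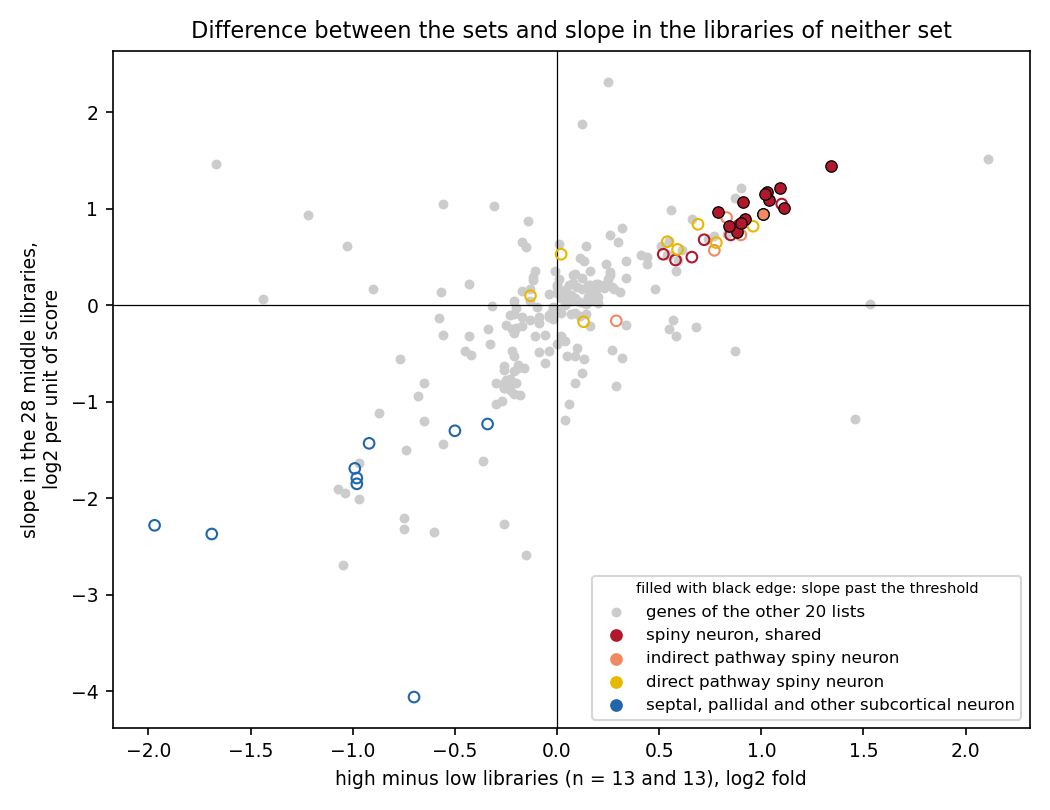
Slope on the score in the 28 middle libraries (vertical axis, log2 per unit of score) against the log2 difference, high minus low libraries (horizontal axis), for the genes of the 24 lists; 1 point per gene, filled with a black edge, in the 4 coloured lists, where the slope passed an adjusted p of 0.05. The shared spiny neuron markers sit together at the upper right, with slopes between 0.47 and 1.44, and the septal and pallidal markers at the lower left with none past the threshold.

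Septal and pallidal markers had slopes below 0 in 9 of 9 cases (median -1.79), and none passed in the middle libraries. Other lists were as one-sided there, also with 0 past the threshold. Slopes were below 0 for 14 of 14 myelin (median -0.8), 11 of 11 endothelial and mural (-0.48) and 7 of 7 cholinergic interneuron genes (-1.02). They were above 0 for 11 of 11 microglial genes (0.36). Slc17a6 had a slope of -2.37 at 2.94 to 36.2 CPM (edgeR adjusted p = 0.803). The negative slopes with the smallest p over all genes were Dzank1 (-0.88, edgeR adjusted p = 0.0641), Tmie (-1.81, 0.0641) and Gprin2 (-1.67, 0.0642), followed by Ntsr1, a neurotensin receptor, at -2.56 (0.0694). The immediate early genes, with a median slope of -0.21 and 8 of 12 below 0, had none past the threshold, and Arc had a slope of -0.47 (edgeR adjusted p = 0.998).

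In the study's own comparisons, none of the 3 score genes passed the threshold. In P42 females Ppp1r1b had 2143, 1952, 2120 and 1609 CPM in the 4 PAE-VEH libraries, against 1098 to 1823 CPM (median 1440) in the 7 FCL-VEH libraries. Of the 4 exposed libraries 3 lay above every control, and the fourth lay among them. The lowest control, replicate 5 at 1098 CPM, had sex markers that went against its label. The log2 difference was 0.51 ± 0.17 (edgeR adjusted p = 0.256), with Adora2a at 0.49 ± 0.19 (0.304) and Drd1 at 0.32 ± 0.18 (0.5). With each of the 11 libraries left out in turn Ppp1r1b stayed between 0.46 and 0.60. Penk had the largest of the 8 spiny neuron genes examined, 0.77 ± 0.18 (edgeR adjusted p = 0.147), and 20 of 20 shared markers were positive with a median of 0.34 and 0 past the threshold. Other lists were as one-sided there, with 0 genes past the threshold in each. All 9 septal, pallidal and other subcortical markers (median -0.51), 9 of 9 choroid plexus (-1.02), 8 of 8 ependymal (-0.69) and 14 of 14 myelin genes (-0.32) were negative, and 12 of 12 immediate early genes (0.57) were positive. Their part in the spiny neuron values was not tested. In P42 males the 3 score genes were at 0.01 ± 0.13, -0.01 ± 0.13 and -0.03 ± 0.14, and the difference between the sexes was 0.50 ± 0.22 for Ppp1r1b (edgeR adjusted p = 0.431) and 0.53 ± 0.23 for Adora2a (0.43).

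At P90 none of these genes passed either. Ppp1r1b was at 0.32 ± 0.28 in PAE-AAE over FCL-VEH females (edgeR adjusted p = 1.0) and at -0.12 ± 0.29 in males (0.941). The 5 exposed female libraries ran between 1174 and 1854 CPM, within the range of the 8 female controls at 542.8 to 1895 CPM. Across all genes the 4 exposure comparisons called 0.0% by edgeR, with or without the score as a covariate, while DESeq2 without it called 86 genes in P42 females, 24 in P42 males, 8 in P90 females and 2 in P90 males. At an unadjusted p below 0.05 the number of genes was 2595 with it and 2784 without it in P42 females, 2291 and 2217 in P42 males, 1138 and 1015 in P90 females, and 2418 and 2100 in P90 males.

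Between the ages, within the controls, more genes passed with the score in the fit. Between P90 and P42 FCL-VEH females, 216 genes passed the threshold with the score as a covariate (106 higher and 110 lower), against 54 higher and 47 lower without it (0.42% of the genes tested), of which 100 were in both. Between P90 and P42 FCL-VEH males, 794 genes passed with it (553 higher and 241 lower) and 610 without it (465 higher, 1.93%, and 145 lower, 0.603%, together 2.53%), with 603 in both. Without the libraries whose sex markers go against their label the counts without the score were 43 in females and 322 in males, and without the libraries that stood apart the male count was 250. These comparisons share their control libraries with the exposure comparisons. None of the 3 score genes passed the threshold with age. Ppp1r1b was at -0.10 ± 0.22 in females (edgeR adjusted p = 0.847) and 0.07 ± 0.22 in males (0.905). Drd1 was at -0.09 ± 0.19 (0.852) and -0.2 ± 0.2 (0.632), and Adora2a at -0.21 ± 0.21 (0.629) and -0.12 ± 0.21 (0.818). The 95% intervals were wide, for Adora2a in females -0.62 to 0.19.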

How the data were processed

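RNA-seq read counts per gene, as deposited by the authors, were used for 54 nucleus accumbens libraries, with FPKM in 54 further deposited columns that were not used. Reads were trimmed with fastp and aligned with HISAT2 2.0.5, per the submitters' processing notes. For the counting program and for the genome build nothing was given in the sources used here. Of 46505 rows, 720 loci without a name, 0.271% to 0.412% of a library's counts, were left out, and 45785 genes remained, 45780 of them with the same start and end in the RefSeq annotation of GRCr8. Libraries are not stranded, so reads of overlapping antisense genes cannot be told apart.

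The 13 highest and 13 lowest libraries by score were compared with edgeR 4.0.16 (R 4.3.3; TMM scaling, filterByExpr, quasi-likelihood F test, study group as covariate, Benjamini-Hochberg threshold 0.05), and DESeq2 1.42.0 was an alternative. The same test gave slopes on the score in the 28 middle libraries and the study's exposure and age comparisons. A permutation test used 100000 resamples (scipy 1.17.1). The scripts were tested on simulated data, with 200 changed genes of at least 10 CPM on average in each test. The middle library fit recovered 20.5% of true slopes of 1. The high against low fit recovered 73.5% of true log2 differences of 0.5, and the P42 female exposure comparison 96% of differences of 1. The members, the 24 gene lists and the tests were chosen with earlier results of these data known. Named genes were the 3 score genes, the 10 higher and 10 lower genes with the smallest p at a mean of at least 1 CPM, up to 4 leading members of each list, and all pathway markers; further genes named were chosen after their values were seen. The labels give 1 batch for all libraries, so no within-batch value exists. Values of 1 gene of the shared spiny neuron list are not reported here.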

Additional observations from a re-analysis of the deposited data

Results flagged for a closer look

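In the P90 male PAE-AAE group of 6 libraries, replicate 3 lay far below the other 5. Its score was 8.05, against 8.96 to 9.48 in the others. Ppp1r1b had 633.4 CPM in it, against 1403 to 2021 CPM, and Adora2a had 148.7 CPM, against 275.5 to 396.4 CPM. The gap of each to the nearest other library exceeded Dixon's critical value. The 3 measures share the same genes, 32 groupings were examined, and chance flags about 1 in 20.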

How the results depend on the processing

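The high and low libraries were split on expression, so their counts move with the split. Against 1359 genes higher, the 10 highest against the 10 lowest gave 502, and leaving out the 3 libraries that stood apart gave 2039. Against 786 lower, these gave 364 and 1333, the 18 against 18 gave 1420, DESeq2 1298, a score centred within group 1266 and no group covariate 1591. Against 38 positive and 0 negative slopes, DESeq2 gave 105 and 27, no covariate 63 and 24, and all 54 libraries, which include those chosen by the score, 2209 and 2471. None of the libraries that stood apart was in the middle, so that alternative gave no value there.

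In the exposure comparisons DESeq2 called 24 genes in P42 males, 86 in P42 females, 72 for the difference between the sexes, 2 in P90 males and 8 in P90 females, against 0 each by edgeR. Leaving out 1 library gave 0 to 7 for the P42 sex difference and 0 to 1 in P90 females, and leaving out libraries whose sex markers go against their label gave 1 for the P42 sex difference. For age, 610 genes in males became 360 without a filter, 1166 by DESeq2, 938 with all libraries in 1 fit, 322 without the mismatched and 250 without the outlying libraries. The 54 higher and 47 lower genes in females became, together, 60, 349, 178 and 43 under the first 4 of these, and 216 with the score as covariate. The causes were not tested.

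The cortical list's median turned between the sets, at -1.49 for 10 against 10 and -0.91 with no group covariate, against 0.19. In the study's comparisons score genes not past the threshold turned. Without the mismatched libraries Ppp1r1b was at -0.04 in P42 males. Without the outlying libraries Drd1 was at 0.03 and Adora2a at 0.04 in P42 males, Ppp1r1b at 0.11 and Adora2a at 0.14 in P90 males, Ppp1r1b at -0.15 for age in males, and Ppp1r1b at 0.01 and Drd1 at 0.03 for age in females. The P90 sex difference of Drd1 ran between -0.14 and 0.10 with 1 library left out, and its 9 turned values between 0.01 and 0.10. No paired analysis was possible because the labels give no replicate numbers shared between groups.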
